A study of Mus musculus with 12 samples.

Results

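The right ventricle (RV) of R14del-PLN mouse hearts was compared with the RV of WT-PLN hearts across all expressed genes. The comparison used the 6 RV samples out of 12 in the series, 3 of each genotype, chosen by their labels. Of 33641 genes listed, 12526 averaged 0.5 TPM or more across the series and were tested. TPM is a length-corrected measure of a gene's share of the transcripts in its sample, on a scale that sums to 1000000. Both groups were knock-in mice of 12 to 14 weeks, labelled as C57BL/6J, in which the human phospholamban coding sequence replaces the mouse one. WT-PLN hearts carry the normal human sequence, and R14del-PLN hearts, labelled as knock-out in the sample titles, lack arginine 14 of the human protein. The study's methods describe the R14del-PLN mice as heterozygous, so that they keep an intact human allele, and all mice as male. The line was made from chimeras of 129/Sv and C57Bl/6J origin and bred to Sox2-Cre mice, and the strain origin of each region is not stated. The labels do not state that the 3 samples of a group came from 3 animals, and the p-values below measure only the spread between these samples.

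Phospholamban (PLN) is a small membrane protein of the sarcoplasmic reticulum, the calcium store of the cardiomyocyte. Unphosphorylated PLN lowers the calcium affinity of the SERCA2a pump, and phosphorylation after β-adrenergic stimulation relieves this brake, which speeds relaxation. The R14del mutation removes an arginine from the cytosolic part of the protein and is known for arrhythmia and cardiomyopathy in carriers. The RV is the thin-walled chamber that pumps into the lungs and is the chamber most affected in classic arrhythmogenic cardiomyopathy.

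A gene was called when its limma adjusted p was at most 0.05 and its fold change was at least 1.5. In the RV, 34 of 12526 genes were called (0.271% of those tested), 9 higher (0.0719%) and 25 lower (0.2%) in R14del-PLN hearts. For all 34, the TPM ranges of the genotypes did not overlap, which held for 5.19% of tested genes in the upward and 5.79% in the downward direction. The 34 were picked by their p on the same values, so their lack of overlap is no separate support. At an unadjusted p under 0.05, 353 genes were higher (2.82%) and 426 lower (3.4%). The share of calls that were higher was 26.5%, and it was 41.7% without mitochondrially encoded genes (30 higher, 42 lower) and 36.8% after upper quartile scaling (32 higher, 55 lower). It was lower, at 7.14%, with a minimum mean of 5 TPM (2 higher, 26 lower), at 15.4% without WT-PLN replicate 1 (6 higher, 33 lower) and at 13.6% without both WT-PLN replicate 1 samples of the series (12 higher, 76 lower). The median log2 fold change of all tested genes was -0.0034. Genes that the study's text does not name are described first.

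The RV libraries resembled each other, with correlations of log2(TPM + 1) between replicates from 0.966 to 0.988, but some stood apart. The Y-linked genes reached only 0.0159 to 0.118 TPM in WT-PLN replicate 1, although the study states male mice, and 3.03 to 27.2 TPM in the remaining 5 RV samples. R14del-PLN replicate 3 carries the name of another sequencing run than the other samples. Without WT-PLN replicate 1, 39 genes were called, including 27 of the 34, and within the shared run, without R14del-PLN replicate 3, 20 were called, including 19 of the 34. Without WT-PLN replicate 2, 14 were called, and 17 without WT-PLN replicate 3. In all of these, each of the 34 genes kept its direction. The mitochondrial genome supplied 48.7% to 52.7% of the TPM total of WT-PLN samples and 51.1% to 54.5% of that of R14del-PLN samples.

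The tissue was cardiac by its markers: the 10 cardiomyocyte markers summed to 36539 to 40682 TPM in WT-PLN and 34600 to 45826 TPM in R14del-PLN samples, and the 11 lymphocyte markers to 1.67 TPM or less. The summed levels of a few other marker lists separated the genotypes. The summed level of 8 red cell markers was 1462 to 1737 TPM in WT-PLN and 957 to 1369 TPM in R14del-PLN samples, that of 8 neutrophil markers 4.38 to 7.65 and 3.40 to 3.63 TPM, and that of 9 epicardial markers 5.51 to 11.2 and 1.70 to 5.21 TPM. The sum of 8 adipocyte markers was 17.0 to 20.6 TPM and 20.9 to 34.6 TPM. Single markers separated less: all 5 tested adipocyte and all 3 tested epicardial markers overlapped between genotypes, as did 3 of 4 neutrophil markers, while 4 of 6 red cell markers lay below without overlap. Each of these 4 pairs of ranges did not overlap (exact permutation p = 0.1, the smallest that 3 against 3 allows), and no single marker of them was called. The sums of endothelial, fibroblast, mural and macrophage markers overlapped between genotypes. Atrial markers varied within both groups, from 122 to 951 TPM in WT-PLN and from 72.6 to 571 TPM in R14del-PLN samples. The part of cell makeup in the results below was not tested, and in whole tissue fewer cells of a type and less RNA per cell cannot be told apart.

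**Figure D1:**
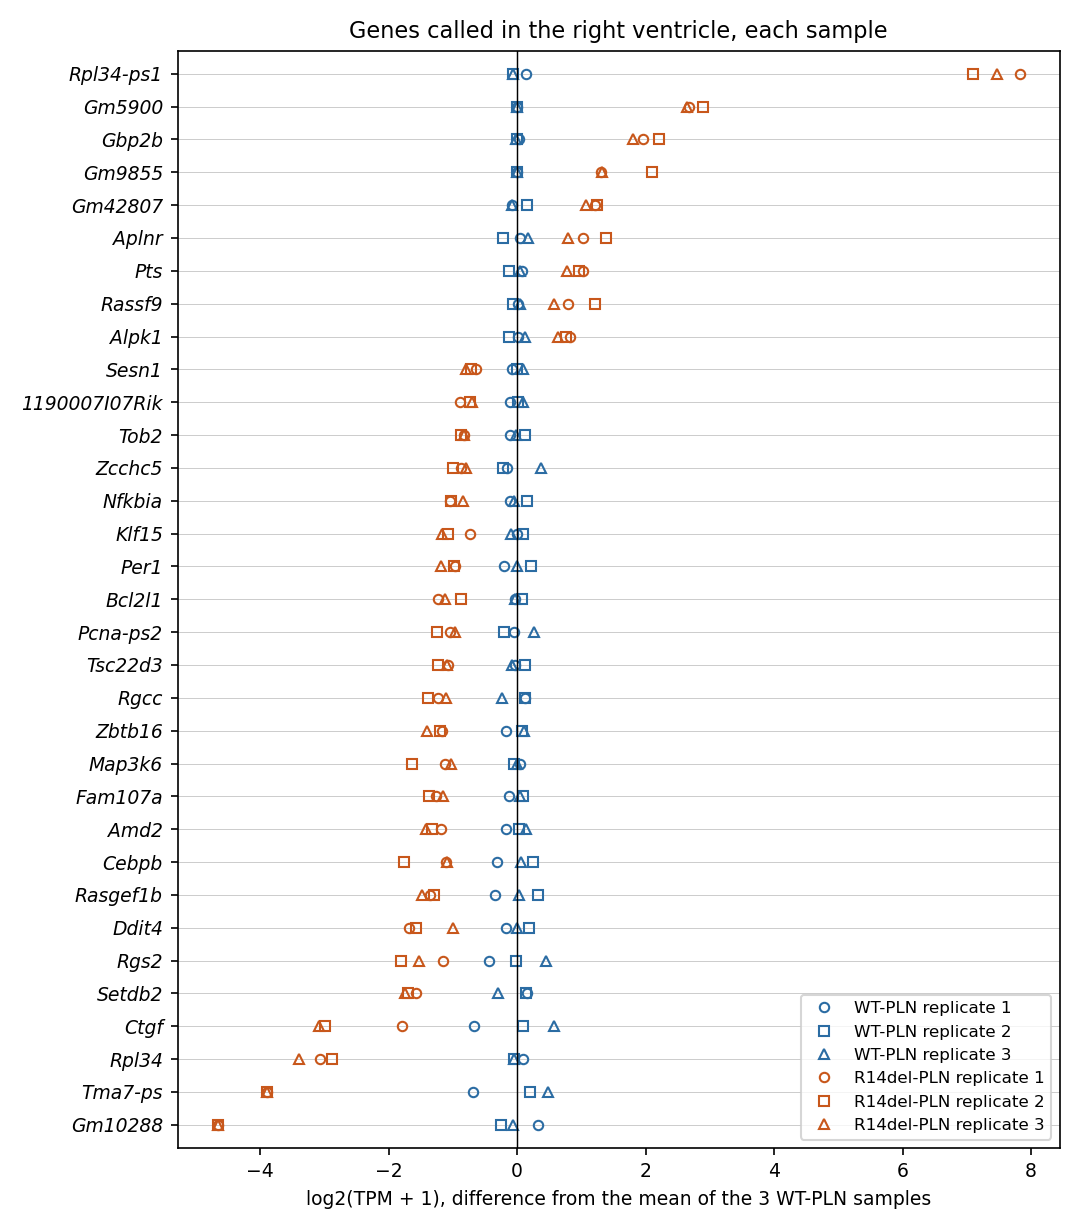
Called genes in each RV sample, as log2(TPM + 1) minus the mean of the 3 WT-PLN samples (horizontal axis). Symbols mark the replicates, blue WT-PLN and orange R14del-PLN. The 9 genes that were higher in R14del-PLN hearts are at the top, led by Rpl34-ps1, and the groups do not overlap for any gene plotted.

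The largest differences were in transcripts that have near-identical copies elsewhere in the genome. Processed pseudogenes are copies of a spliced messenger RNA that were inserted back into the genome, and most of them are not known to be translated. Pseudogenes made up 7 of the 34 called genes (20.6%), against 408 of all tested genes (3.26%). A copy of at least 95% identity over at least 80% of the shorter transcript was found for 9 of the 34 genes and for none of the other 25. A read from such a sequence could be assigned to either copy, so the values of these 9 genes are uncertain.

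Rpl34 encodes a protein of the large ribosomal subunit, and Rpl34-ps1 is a processed pseudogene with the same coding length of 354 bases and 99.4% identity. The stretches of the coding sequence around the only differing bases are given here in capitals, from the transcripts of the GRCm38 annotation, since they show how little separates these copies. Positions count from 1 at the start codon.

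Rpl34, positions 112 to 152: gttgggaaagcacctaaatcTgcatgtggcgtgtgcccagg
Rpl34-ps1, same stretch, T132C: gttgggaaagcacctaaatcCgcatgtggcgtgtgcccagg
Rpl34, positions 298 to 338: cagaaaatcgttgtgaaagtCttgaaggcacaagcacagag
Rpl34-ps1, same stretch, C318G: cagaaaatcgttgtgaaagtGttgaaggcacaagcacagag
Tma7, positions 103 to 161: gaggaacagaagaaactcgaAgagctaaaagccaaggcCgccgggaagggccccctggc
Tma7-ps, same stretch, A123G and C141T: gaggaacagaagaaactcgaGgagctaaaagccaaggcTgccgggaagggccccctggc
Lamtor3, positions 91 to 131: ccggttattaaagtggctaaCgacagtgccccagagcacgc
Gm5900, same stretch, C111T: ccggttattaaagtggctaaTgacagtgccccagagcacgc
Lamtor3, positions 316 to 356: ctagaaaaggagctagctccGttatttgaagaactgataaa
Gm5900, same stretch, G336A: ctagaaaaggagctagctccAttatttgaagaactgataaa

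Rpl34-ps1 lies on chromosome 6 (71124610 to 71124963, GRCm38) and Rpl34 on chromosome 3 (130726831 to 130730398). Rpl34-ps1 was at 0.154, 0 and 0 TPM in the WT-PLN samples and at 236, 143 and 185 TPM in the R14del-PLN samples. Rpl34 went the other way, at 214, 192 and 194 TPM in WT-PLN and 22.9, 26.1 and 18.1 TPM in R14del-PLN samples. On the log2(TPM + 1) scale Rpl34-ps1 rose by 7.46 (standard error 0.20, limma adjusted p = 8.92e-11) and Rpl34 fell by 3.12 (standard error 0.13, limma adjusted p = 1.89e-08). The copy thus held 0.024% of their summed TPM in WT-PLN and 88.9% in R14del-PLN samples. The sum itself was 200 ± 12.1 TPM in WT-PLN and 210 ± 45.5 TPM in R14del-PLN samples (SD, n = 3 each, exact permutation p = 0.8), and its ranges overlapped.

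Tma7-ps, a copy of the translation machinery gene Tma7 with 99.0% identity, was at 8.30, 16.1 and 19.9 TPM in WT-PLN samples, and each R14del-PLN sample listed it at 0. Tma7 and Tma7-ps summed to 52.6 ± 4.98 and 49.8 ± 10.7 TPM (SD, n = 3 each, exact permutation p = 0.8). Gm5900, a copy of Lamtor3, which encodes a scaffold subunit of the Ragulator complex on lysosomes, had a listed value of 0 in every WT-PLN sample and was at 5.38, 6.44 and 5.27 TPM in R14del-PLN samples. Lamtor3 itself was at 30.8 to 34.8 TPM and 30.6 to 31.0 TPM, and its sum with Gm5900 did not overlap between genotypes, at 32.7 ± 2.00 and 36.4 ± 0.583 TPM (SD, n = 3 each, exact permutation p = 0.1).

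Gm10288, a copy of the ribosomal protein gene Rpl11 that differs by G86A over 537 bases, was at 30.5, 20.2 and 23.3 TPM in WT-PLN samples. In R14del-PLN samples it was listed at 5.74e-06, 0 and 0 TPM. The sum with Rpl11 was 206 ± 8.19 TPM in WT-PLN and 152 ± 26.5 TPM in R14del-PLN samples (SD, n = 3 each, exact permutation p = 0.1), so that here the sum was also lower without overlap. Rpl11 itself was at 185, 180 and 178 TPM and 181, 129 and 146 TPM, and the sum fell by more than the copy alone. Gm9855, a copy of Tdg, a DNA glycosylase gene of base excision repair, was listed at 0 in WT-PLN samples and was at 1.47, 3.28 and 1.51 TPM in R14del-PLN samples. Its sum with Tdg was 5.49 ± 0.598 and 5.78 ± 1.54 TPM (SD, n = 3 each, exact permutation p = 0.9).

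Amd1 and Amd2 are near-identical genes for S-adenosylmethionine decarboxylase, the enzyme that supplies the aminopropyl groups of spermidine and spermine, and differ by G796C over the 1005 coding bases. Amd2 was at 20.1, 23.3 and 25.1 TPM in WT-PLN and 9.42, 8.48 and 7.86 TPM in R14del-PLN samples, a fall of 1.31 on the log2 scale (standard error 0.12, limma adjusted p = 9.78e-05). Amd1 was at 57.3, 62.5 and 67.1 TPM and 52.8, 58.2 and 52.6 TPM, with a log2 fold change of -0.19 (limma adjusted p = 1.0). The sum of both fell outside the other group's range, at 85.2 ± 7.44 and 63.1 ± 3.22 TPM (SD, n = 3 each, exact permutation p = 0.1). None of the other 12 tested genes of polyamine synthesis and breakdown was called.

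Pcna-ps2, a copy of the replication clamp gene Pcna, fell by 1.084 on the log2 scale, while its sum with Pcna overlapped (19.98 ± 3.74 and 17.2 ± 1.68 TPM, SD, n = 3 each, exact permutation p = 0.4). The coding gene 1190007I07Rik fell by 0.77 and has a copy of 98.0% identity. With each RV sample left out in turn, Pcna-ps2 was called in 2 of 6 fits and 1190007I07Rik in 1. Gm42807, a processed pseudogene with no copy at that identity, was at 0, 0.164 and 0 TPM in WT-PLN and 1.45, 1.48 and 1.20 TPM in R14del-PLN samples, and was called in 0 of the 6 fits that left out a sample. Of the 79 ribosomal protein genes tested, Rpl34 was the only one called, and the median of the list was -0.19.

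**Figure D2:**
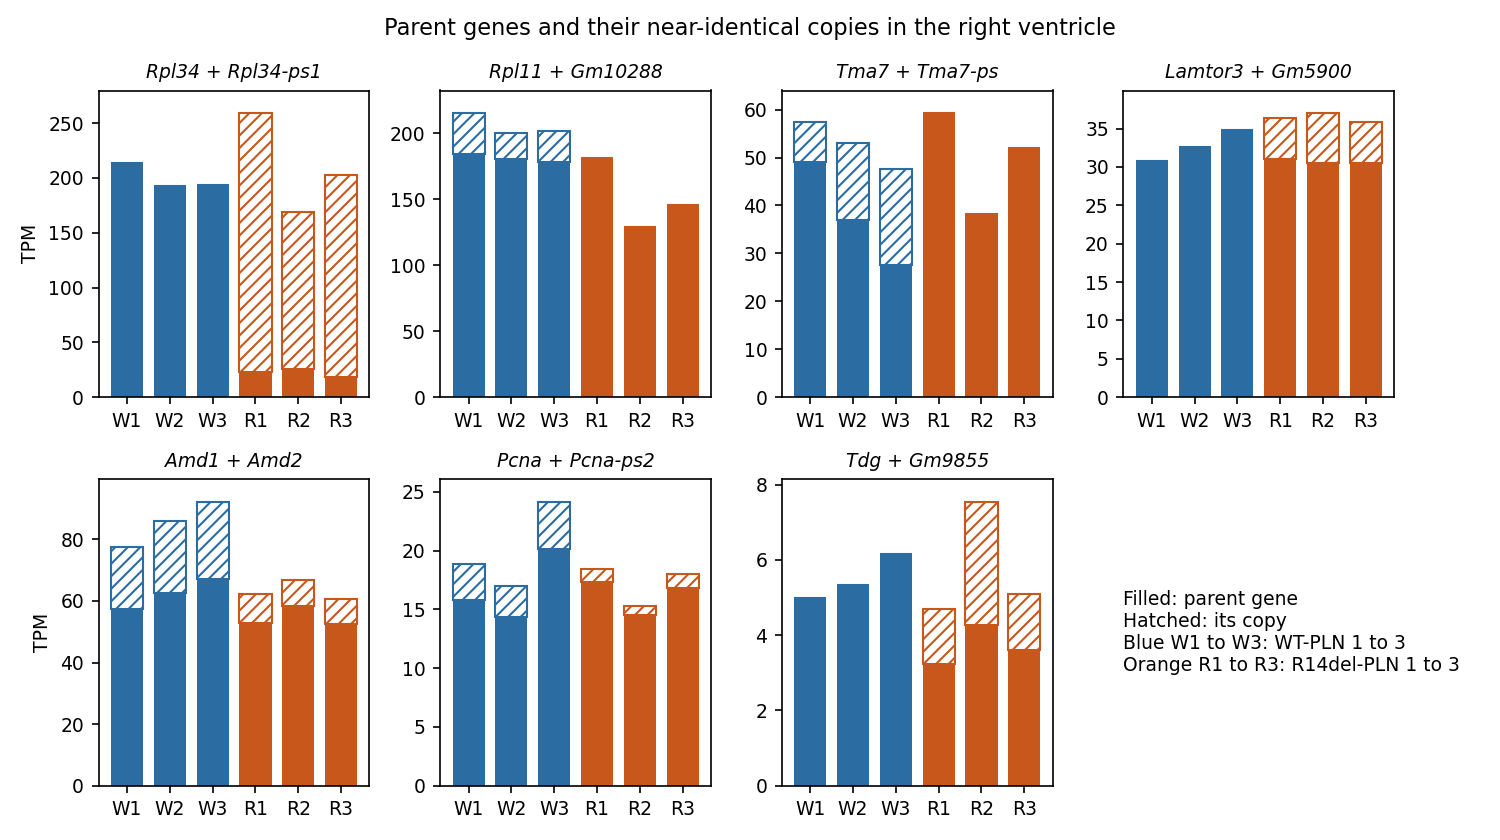
TPM of 7 parent genes (filled bars) and their near-identical copies (hatched, stacked on top) in each RV sample, blue WT-PLN 1 to 3 and orange R14del-PLN 1 to 3. The hatched part appears or disappears with genotype in the Rpl34, Rpl11, Tma7, Lamtor3 and Tdg panels, while the stacked height overlaps between genotypes for Rpl34, Tma7, Pcna and Tdg.

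Among protein-coding genes without such a copy, 5 rose in R14del-PLN hearts. Gbp2b encodes a guanylate-binding protein, a GTPase of the interferon response. It was at 0.0352, 0.0107 and 0 TPM in WT-PLN samples and at 2.95, 3.68 and 2.52 TPM in R14del-PLN samples, so the gene was near 0 in all WT-PLN samples and present in all R14del-PLN samples (log2 fold change 1.99, standard error 0.14, limma adjusted p = 4.31e-06). Of the other 36 interferon-stimulated genes tested, none was called, including its neighbours Gbp2 (4.44, 3.93 and 4.51 against 4.69, 5.46 and 3.77 TPM) and Gbp3 (1.81, 1.77 and 2.45 against 2.27, 3.60 and 2.03 TPM). The list had 9 of 37 members above and 0 below without overlap, against 5.19% and 5.79% of all tested genes, and a median log2 fold change of 0.18, which ranged from 0.052 to 0.28 over the other settings. By sample the list's median against the WT-PLN mean was 0.15, 0.49 and -0.0035 in R14del-PLN samples and -0.031, -0.075 and 0.080 in WT-PLN samples, so R14del-PLN replicate 3 lay within the WT-PLN range and replicate 2 was highest.

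Aplnr encodes the receptor for apelin and apela, peptides that act on vessels and on cardiac contraction. It was at 1.49, 1.06 and 1.71 TPM in WT-PLN and 3.88, 5.28 and 3.15 TPM in R14del-PLN samples, 2.88-fold higher by group means (log2 fold change 1.06, standard error 0.17, limma adjusted p = 0.0154). It was called in 4 of the 6 fits that left out a sample. Aplnr was the only called gene of 20 tested in apelin, adrenomedullin, endothelin and angiotensin signalling. Ramp2, which modifies the adrenomedullin receptor, was at 26.8, 26.2 and 24.5 TPM and 21.9, 12.3 and 16.2 TPM without overlap and was not called (log2 fold change -0.63, limma adjusted p = 0.24).

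Pts encodes an enzyme of tetrahydrobiopterin synthesis, the cofactor of nitric oxide synthases and of aromatic amino acid hydroxylases. It was at 12.0, 10.3 and 11.8 TPM in WT-PLN and 24.02, 22.97 and 20.1 TPM in R14del-PLN samples, 1.97-fold higher (log2 fold change 0.92, standard error 0.15, limma adjusted p = 0.0168). Rassf9, a Ras-association domain gene, was at 1.82, 1.68 and 1.90 TPM and 3.84, 5.49 and 3.15 TPM (log2 fold change 0.86, standard error 0.15, limma adjusted p = 0.0280). Alpk1, a kinase that senses a bacterial sugar, was at 0.567, 0.424 and 0.694 TPM and 1.74, 1.64 and 1.43 TPM (log2 fold change 0.74, standard error 0.14, limma adjusted p = 0.0447). For all 3 genes every R14del-PLN sample lay above every WT-PLN sample, but the calls were not stable. Pts was called in 16 of 21 other settings, and Rassf9 and Alpk1 in only 11 and 9 of the 20 in which they were tested. With each RV sample left out in turn, Pts was called in 2 of 6 fits, Rassf9 in 1 and Alpk1 in 0.

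The list of genes widely induced by glucocorticoids held more calls than any of the other 29 lists, and all were lower in R14del-PLN hearts. The lists were chosen with earlier results of these data known, so this ranking is a description and no independent support. Glucocorticoids act through a nuclear receptor that binds DNA and raises the transcription of a widely shared set of genes. Of 38 tested genes of this list, which also holds the receptor gene Nr3c1, 10 were called, all lower, against 0.2% of all tested genes called lower. The ranges lay below those of WT-PLN samples without overlap for 24 of the 38 and above for 1, against 5.79% and 5.19% of all tested genes, and the median log2 fold change was -0.61. By sample, the median of the list against the WT-PLN mean was -0.70, -0.56 and -0.64 in R14del-PLN replicates 1, 2 and 3 and -0.099, 0.073 and 0.032 in WT-PLN replicates. The 3 R14del-PLN samples were close to each other and well below the lowest WT-PLN sample. The number called was 9 without WT-PLN replicate 1, 5 without R14del-PLN replicate 3, 4 without WT-PLN replicate 3 and 3 without WT-PLN replicate 2, and the median stayed between -0.71 and -0.56 in every setting.

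Tsc22d3 encodes GILZ, a leucine zipper protein that is a classic target of the receptor. It was at 81.9, 90.6 and 78.6 TPM in WT-PLN and 39.1, 34.8 and 38.6 TPM in R14del-PLN samples, 2.23-fold lower (log2 fold change -1.14, standard error 0.15, limma adjusted p = 0.00422). Klf15, a transcription factor of cardiac and muscle metabolism that also represses hypertrophy genes, was at 29.9, 31.7 and 27.9 TPM and 17.4, 13.7 and 12.6 TPM (log2 fold change -0.99, standard error 0.14, limma adjusted p = 0.00847). Zbtb16, a zinc finger repressor, was at 36.6, 43.5 and 44.4 TPM and 17.9, 17.4 and 15.0 TPM (log2 fold change -1.26, standard error 0.18, limma adjusted p = 0.00897). The groups were separated by a wide gap in each of these genes. With each RV sample left out in turn, Tsc22d3 was called in 6 of 6 fits, Klf15 in 4 and Zbtb16 in 3.

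Per1 is both a glucocorticoid target and a repressor of the circadian clock. It was at 14.8, 20.2 and 17.3 TPM in WT-PLN and 8.30, 8.25 and 7.01 TPM in R14del-PLN samples (log2 fold change -1.05, standard error 0.17, limma adjusted p = 0.0168). Fam107a, an actin-associated stress response gene, was at 8.46, 9.92 and 9.57 TPM and 3.30, 2.98 and 3.61 TPM (log2 fold change -1.26, standard error 0.16, limma adjusted p = 0.00286). Map3k6, a stress-activated kinase, was at 4.62, 4.25 and 4.44 TPM and 1.51, 0.754 and 1.66 TPM (log2 fold change -1.26, standard error 0.16, limma adjusted p = 0.00347). Fam107a, Map3k6 and Tsc22d3 were called in every setting in which they were tested. Per1 was called in 3 of the 6 fits that left out a sample.

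Cebpb, a transcription factor of the acute response, was at 10.8, 16.3 and 14.3 TPM in WT-PLN and 5.82, 3.32 and 5.84 TPM in R14del-PLN samples (log2 fold change -1.32, standard error 0.21, limma adjusted p = 0.0168). Its gene overlaps Tmem189 on the opposite strand, and although the libraries were stranded, whether reads were counted by strand is not stated. Ddit4, which encodes the mTORC1 inhibitor REDD1, was at 28.1, 36.4 and 31.9 TPM and 9.24, 10.1 and 15.4 TPM (log2 fold change -1.42, standard error 0.26, limma adjusted p = 0.0372). Nfkbia, which encodes the NF-kappaB inhibitor IκBα, was at 20.9, 25.2 and 21.9 TPM and 10.4, 10.5 and 12.1 TPM (log2 fold change -0.98, standard error 0.18, limma adjusted p = 0.0451), and it was called in 0 of the 6 fits that left out a sample. Cebpb was called in 3 of those fits and Ddit4 in 1.

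Rgs2 encodes a regulator that ends signalling of Gq-coupled receptors and also restrains adenylyl cyclase. It was at 23.9, 32.4 and 45.0 TPM in WT-PLN and 14.1, 8.61 and 10.7 TPM in R14del-PLN samples, 3.03-fold lower (log2 fold change -1.498, standard error 0.24, limma adjusted p = 0.0180). The call held in 2 of the 6 fits that left out a sample and was lost with the RV samples alone. Rgs2 is on the glucocorticoid list and was also the only called gene of 21 tested among adrenergic receptors, adenylyl cyclases and their desensitisation genes.

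Other members of the glucocorticoid list did not pass the test. Fkbp5, a chaperone that dampens the receptor, was at 18.9, 19.0 and 18.6 TPM and 9.30, 13.7 and 6.32 TPM (log2 fold change -0.94, limma adjusted p = 0.094). Cdkn1a, the cell cycle inhibitor p21, was at 6.17, 10.8 and 6.78 TPM and 2.00, 2.23 and 2.56 TPM (log2 fold change -1.42, limma adjusted p = 0.051). The metallothionein gene Mt2 was at 20.6, 36.0 and 33.5 TPM and 11.6, 5.32 and 10.7 TPM (log2 fold change -1.63, limma adjusted p = 0.065). Cebpd had a log2 fold change of -0.81 and Klf9 of -0.56 (limma adjusted p = 0.077 for each). For these 5 genes the groups did not overlap. The receptor gene itself, Nr3c1, was at 11.5, 11.2 and 13.9 TPM and 12.9, 18.9 and 13.6 TPM, with overlapping ranges (log2 fold change 0.27, limma adjusted p = 0.99). Hsd11b1, which encodes the enzyme that regenerates active glucocorticoid in cells, also overlapped, at 5.99, 15.3 and 19.3 TPM and 17.4, 14.8 and 12.5 TPM. Its log2 fold change of 0.26 turned to -0.20 without WT-PLN replicate 1. Sgk1, another widely used target, overlapped as well (10.4, 17.5 and 15.7 against 6.93, 13.3 and 10.8 TPM).

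**Figure D3:**
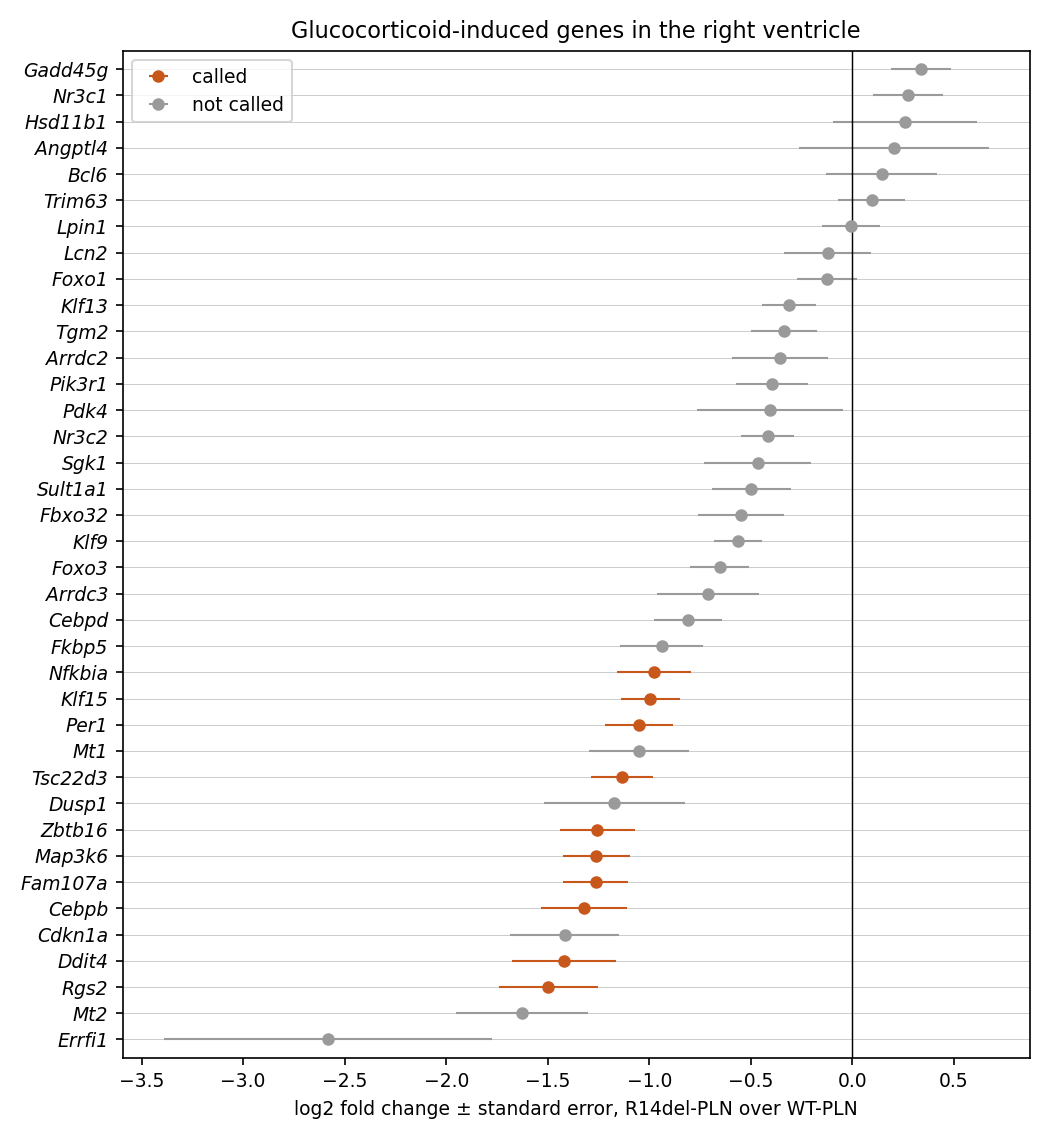
Log2 fold change of the 38 tested genes of the glucocorticoid list, which includes the receptor gene Nr3c1, in the RV. Values are R14del-PLN over WT-PLN, with bars of 1 standard error from limma (n = 3 per group). Orange points are called. All 10 called genes lie at or below -0.98, while Gadd45g, Nr3c1 and Hsd11b1 are highest. Without WT-PLN replicate 1, Hsd11b1 turns to -0.20.

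Sequences upstream of the called genes were searched for the core of the glucocorticoid receptor element, ACANNNTGT, and for the clock element CACGTG, on both strands, from 250 bases before to 50 after each start site (RefSeq, GRCm38.p6). Of the 19 protein-coding genes called lower with such a window, 3 held the receptor core (15.8%), which was found in 4.99% of tested genes and in 7.90% of all genes with a window. They were Map3k6, Fam107a and Bcl2l1, the last of which is not on the glucocorticoid list. Counted by window, the shares were 14.3% of 28 and 4.16% of 12163. Overlapping windows of Fam107a hold the same site, so the count by window is no separate support. Of 34 genes of the glucocorticoid list with a window, 6 held the core, and of these only Map3k6 and Fam107a were called. The called list genes Tsc22d3, Klf15, Per1, Cebpb, Ddit4, Nfkbia and Rgs2 did not hold it. CACGTG was found in 4 of the 19 (21.1%, against 11.9% of tested genes), namely Klf15, Per1, Rpl34 and 1190007I07Rik. Rpl34 and 1190007I07Rik have a near-identical copy, so their values, and with them this share, are uncertain. TGACGTCA, the cyclic AMP element, and TGANTCA, the AP-1 element, were found in 0 of the 19, against 3.48% and 6.19% of tested genes. These counts are a description of short windows, and receptor binding was not tested. The windows of 4 genes are shown because their genes were lower and hold a searched motif, in capitals. Klf15 has 3 copies of CACGTG in its window.

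Map3k6, chr4:133240568-133240867, plus strand: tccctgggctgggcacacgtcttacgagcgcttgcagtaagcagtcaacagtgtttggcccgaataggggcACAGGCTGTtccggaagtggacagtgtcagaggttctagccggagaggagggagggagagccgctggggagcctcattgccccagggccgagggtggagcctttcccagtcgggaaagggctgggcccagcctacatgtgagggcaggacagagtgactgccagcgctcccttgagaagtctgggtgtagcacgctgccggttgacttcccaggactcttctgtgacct
Fam107a, chr14:8309730-8310029, minus strand: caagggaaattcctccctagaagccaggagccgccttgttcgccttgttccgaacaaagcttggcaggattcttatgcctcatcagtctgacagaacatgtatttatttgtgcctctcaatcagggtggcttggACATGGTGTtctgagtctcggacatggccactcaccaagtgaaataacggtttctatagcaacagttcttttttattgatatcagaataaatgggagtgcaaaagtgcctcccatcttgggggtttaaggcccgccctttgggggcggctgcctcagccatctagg
Klf15, chr6:90462326-90462625, plus strand: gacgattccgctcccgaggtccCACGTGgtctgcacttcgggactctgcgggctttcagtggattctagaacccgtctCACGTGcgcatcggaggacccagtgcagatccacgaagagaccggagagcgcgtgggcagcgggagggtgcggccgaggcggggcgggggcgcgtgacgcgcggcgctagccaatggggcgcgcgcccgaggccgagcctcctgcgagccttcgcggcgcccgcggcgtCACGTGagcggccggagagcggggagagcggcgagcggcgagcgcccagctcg
Per1, chr11:69098699-69098998, plus strand: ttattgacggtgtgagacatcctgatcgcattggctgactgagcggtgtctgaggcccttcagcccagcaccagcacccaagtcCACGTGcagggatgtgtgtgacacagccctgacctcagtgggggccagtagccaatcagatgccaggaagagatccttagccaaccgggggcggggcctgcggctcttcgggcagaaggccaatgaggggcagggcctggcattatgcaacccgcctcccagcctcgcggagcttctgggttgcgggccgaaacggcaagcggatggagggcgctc

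The circadian clock genes were examined because Per1 and Klf15 belong to both sets. Of 14 tested genes of the core loop, Per1 was the only one called, and 6 of the 14 lay below and 1 above without overlap, against 5.79% and 5.19% of all tested genes (median log2 fold change -0.26). Its paralogue Per2 was at 4.13, 6.14 and 5.66 TPM in WT-PLN and 3.99, 3.93 and 3.02 TPM in R14del-PLN samples (log2 fold change -0.43, limma adjusted p = 0.78). Arntl, which encodes the activator BMAL1, was at 0.316, 0.296 and 0.408 TPM and 0.642, 0.591 and 0.781 TPM, above without overlap (log2 fold change 0.32, limma adjusted p = 0.55). Among 14 tested genes driven by the clock, Klf15 and Tsc22d3 were called. Per1, Klf15 and Tsc22d3 are all on the glucocorticoid list too, so no call was particular to the clock lists. Ciart, a repressor, was at 10.1, 10.6 and 11.1 TPM and 5.04, 6.87 and 5.67 TPM (log2 fold change -0.77, limma adjusted p = 0.10). Dbp, a direct output gene, was at 69.5, 47.7 and 57.9 TPM and 56.7, 43.6 and 42.7 TPM, with overlapping ranges.

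The early response list held 1 called gene, and its levels were uneven among the WT-PLN samples. Early response genes, such as Fos and Egr1, are transcribed within minutes of a growth factor, calcium or stress signal. Of 54 tested, 24 lay below and 4 above without overlap (5.79% and 5.19% of all tested genes), 26 overlapped, and the median log2 fold change was -0.58. By sample the median of the list was -0.36, -0.014 and 0.26 in WT-PLN replicates 1, 2 and 3 and -0.63, -0.58 and -0.68 in R14del-PLN replicates. Without WT-PLN replicate 1, 6 genes of the list were called, and none without WT-PLN replicate 2, WT-PLN replicate 3 or R14del-PLN replicate 3.

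Ctgf, the called gene, encodes connective tissue growth factor, a matricellular protein induced by TGF-beta, stretch and YAP signalling. It was at 91.2, 155 and 218 TPM in WT-PLN and 41.3, 17.4 and 16.3 TPM in R14del-PLN samples, 6.18-fold lower (log2 fold change -2.62, standard error 0.39, limma adjusted p = 0.0102). The lowest WT-PLN sample was above the highest R14del-PLN sample, although the spread was wide in both groups. The call was lost without WT-PLN replicate 2 or 3 or R14del-PLN replicate 3, and Gm15270 overlaps the gene on the opposite strand. Its relative Cyr61 was at 11.8, 21.9 and 95.6 TPM and 9.98, 20.9 and 16.9 TPM, with overlapping ranges.

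Egr1, Fos and Nr4a1, and the other genes plotted beside Ctgf, were chosen after their values were seen and show the spread in WT-PLN hearts. Egr1 was at 1.03, 20.9 and 84.4 TPM in WT-PLN and 1.078, 1.29 and 2.11 TPM in R14del-PLN samples, so WT-PLN replicate 1 was within the R14del-PLN range (log2 fold change -2.67, standard error 1.24, limma adjusted p = 0.80). Fos was at 0.519, 3.38 and 14.2 TPM and 0.419, 0.330 and 0.552 TPM. Nr4a1, an orphan nuclear receptor, was at 1.86, 22.3 and 43.9 TPM and 1.23, 1.20 and 1.22 TPM, without overlap (log2 fold change -2.70, standard error 0.90, limma adjusted p = 0.49). Zfp36, which destabilises inflammatory messenger RNA, was at 9.53, 13.4 and 23.6 TPM and 4.22, 4.68 and 5.604 TPM (log2 fold change -1.42, limma adjusted p = 0.12). The endothelial factor Klf4 was at 8.29, 18.7 and 16.4 TPM and 5.19, 6.21 and 5.06 TPM (log2 fold change -1.19, limma adjusted p = 0.16).

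**Figure D4:**
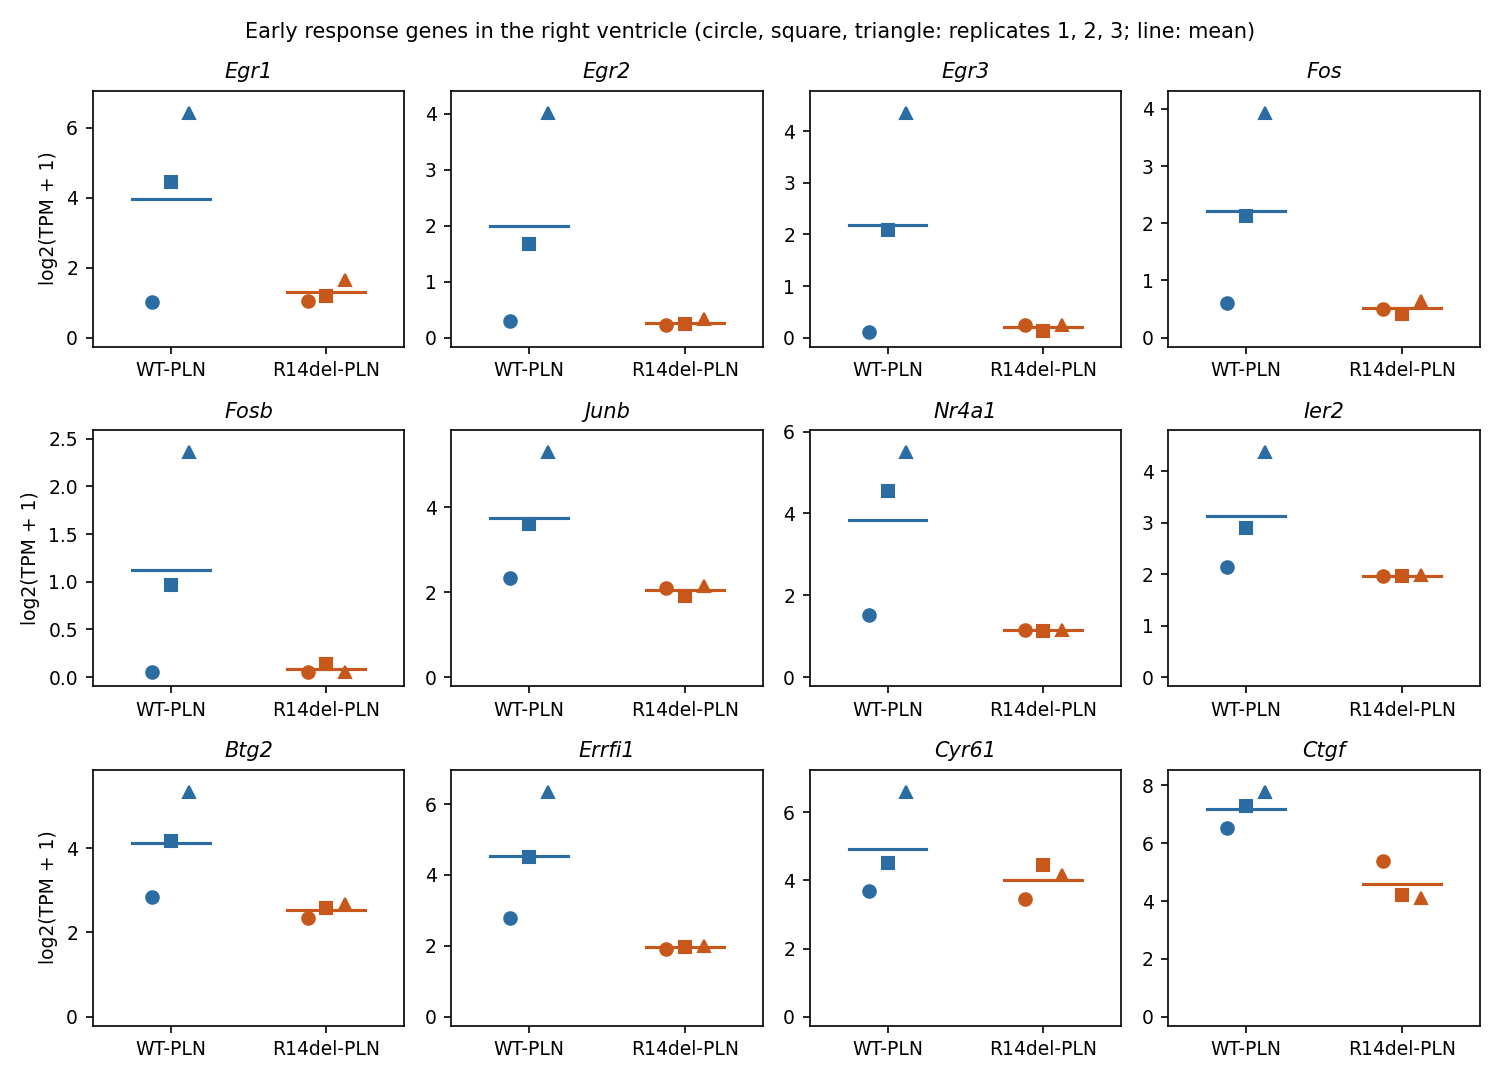
Log2(TPM + 1) of 12 early response genes in each RV sample (circle, square and triangle for replicates 1, 2 and 3, line for the mean of 3). WT-PLN replicate 1 is the lowest WT-PLN sample in every panel, and the WT-PLN points spread more widely than the R14del-PLN points except for Ctgf, where both spread.

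Rgcc, Sesn1 and Tob2 were called lower and belong to none of the 30 lists. Rgcc, a regulator of the cell cycle that responds to complement, was at 26.6, 26.7 and 20.7 TPM in WT-PLN and 9.86, 8.74 and 10.8 TPM in R14del-PLN samples (log2 fold change -1.24, standard error 0.13, limma adjusted p = 0.000483). Sesn1, a p53 target that inhibits mTORC1, was at 65.0, 68.3 and 72.8 TPM and 43.5, 41.2 and 39.0 TPM, 1.67-fold lower (log2 fold change -0.72, standard error 0.12, limma adjusted p = 0.0168). Tob2, an antiproliferative adaptor of deadenylation, was at 20.1, 23.9 and 21.6 TPM and 11.8, 11.5 and 11.8 TPM (log2 fold change -0.84, standard error 0.15, limma adjusted p = 0.0287). The R14del-PLN samples were tightly grouped in all 3 genes. With each RV sample left out in turn, Rgcc was called in 6 of 6 fits, Sesn1 in 2 and Tob2 in 0.

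Setdb2 encodes a methyltransferase for lysine 9 of histone H3. It was at 8.28, 8.21 and 5.76 TPM in WT-PLN and 1.80, 1.57 and 1.48 TPM in R14del-PLN samples, 4.59-fold lower (log2 fold change -1.67, standard error 0.17, limma adjusted p = 0.000271), and it was called in all 20 settings in which it was tested. Of the other 13 tested methyltransferases and demethylases of that residue and their partners, none was called, and 1 of them, Trim28, lay below without overlap (20.7, 19.5 and 20.7 against 16.2, 17.7 and 15.7 TPM). Rasgef1b, a guanine nucleotide exchange factor gene with several antisense transcripts, was at 6.91, 11.6 and 9.29 TPM and 2.95, 3.13 and 2.63 TPM (log2 fold change -1.37, standard error 0.23, limma adjusted p = 0.0192), and it was called in 1 of the 6 fits that left out a sample. Zcchc5, a retrotransposon-derived gene on the X chromosome, was at 1.498, 1.42 and 2.64 TPM and 0.520, 0.409 and 0.617 TPM (log2 fold change -0.89, standard error 0.16, limma adjusted p = 0.0375). It was also called in 1 of those 6 fits, and its call was lost with a pseudocount of 0.1.

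Bcl2l1, which the study's text also names, encodes the survival protein BCL-XL and was at 23.7, 25.7 and 23.8 TPM in WT-PLN and 9.76, 12.8 and 10.7 TPM in R14del-PLN samples (log2 fold change -1.076, standard error 0.15, limma adjusted p = 0.00606). It was the only gene called of 32 tested BCL2 family members and apoptosis regulators.

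Stress pathways outside these genes gave values without calls. Of 27 tested genes of unfolded protein response signalling, Ddit4, which is also on the glucocorticoid list, was the only one called. In this list 9 genes lay below and 1 above without overlap (5.79% and 5.19% of all tested genes). Chac1, which degrades glutathione, was at 2.43, 3.66 and 1.84 TPM and 0.788, 0.764 and 0.961 TPM (log2 fold change -0.96, limma adjusted p = 0.10). Herpud1, of endoplasmic reticulum degradation, was at 145, 166 and 155 TPM and 93.8, 117 and 85.9 TPM (log2 fold change -0.66, limma adjusted p = 0.11). Of 37 cytosolic chaperones, 0 were called and 5 passed an unadjusted p of 0.05, 4 of them lower and 1 higher. Over all tested genes 0.271% were called, and 3.4% were lower and 2.82% higher at that p. Among the 4 lower chaperones was Hspa8, at 529, 683 and 586 TPM and 445, 450 and 417 TPM. The log2 fold change of Dnajb1 lay between -1.56 and -0.92 over the other settings, and it was called in 1 of them. Pim3, a kinase of the early response and apoptosis lists, was at 35.4, 29.5 and 29.1 TPM and 20.2, 17.1 and 19.5 TPM and missed the threshold narrowly (log2 fold change -0.69, limma adjusted p = 0.053). Of 20 chaperones of the endoplasmic reticulum, 0 were called and 1 passed the unadjusted p, while 4 lay below and 0 above without overlap.

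None of the 24 tested genes for calcium release and uptake by the sarcoplasmic reticulum was called, and 0 of them passed an unadjusted p of 0.05. Over all tested genes 0.271% were called, and 2.82% were higher and 3.4% lower at that unadjusted p. At these shares a list of this size would hold few such genes or none. Pln was at 1707, 1660.2 and 1963 TPM in WT-PLN samples and 1720.1, 1811 and 1649.9 TPM in R14del-PLN samples. Its log2 fold change was -0.04 with a 95% interval from -0.27 to 0.19 (limma adjusted p = 1.0), and although reads were mapped to the mouse genome, whether the human coding sequence was added to it is not stated. Atp2a2, which encodes SERCA2a, had a log2 fold change of -0.10 with a 95% interval from -0.44 to 0.24. Casq2, the calcium buffer of the store, was at 290, 239 and 286 TPM and 326, 297 and 330 TPM, above without overlap, with an interval of the log2 fold change from -0.14 to 0.60. Hrc, a luminal calcium-binding protein, overlapped between genotypes, with an interval from -0.15 to 0.68, and Ryr2, the release channel, had an interval from -0.72 to 0.38. These intervals still include changes of moderate size.

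Of 25 tested kinases and phosphatases that act on PLN and their inhibitors, 0 were called and 2 passed an unadjusted p of 0.05. Of these, 1 was higher and 1 lower, near the 2.82% and 3.4% of all tested genes. Camk2b, a calcium/calmodulin kinase subunit, was at 3.30, 3.84 and 5.37 TPM and 5.71, 6.73 and 6.00 TPM (log2 fold change 0.49, limma adjusted p = 0.53). Ppp1cb, a catalytic subunit of protein phosphatase 1, was at 134, 130 and 160 TPM and 114, 109 and 125 TPM (log2 fold change -0.28, limma adjusted p = 0.67). Both pairs of ranges did not overlap.

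Of 40 tested channels, pumps and exchangers of the action potential, 0 were called and 2 passed an unadjusted p of 0.05. Here too 1 was higher and 1 lower, near the shares of all tested genes (2.82% and 3.4%, with 0.271% called). Rrad, a small G protein that inhibits L-type calcium channels, was at 40.7, 17.6 and 40.6 TPM and 68.6, 75.1 and 55.6 TPM (log2 fold change 1.07, standard error 0.29, limma adjusted p = 0.24). Kcna5, a potassium channel of repolarisation, was at 4.86, 6.05 and 4.97 TPM and 3.15, 3.82 and 3.23 TPM (log2 fold change -0.51, standard error 0.15, limma adjusted p = 0.29). Of 22 genes of the desmosome and intercalated disc, 0 were called, and Pkp2, a desmosomal plakophilin, was at 49.7, 49.5 and 57.3 TPM and 38.7, 39.9 and 36.9 TPM (log2 fold change -0.43, limma adjusted p = 0.29).

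Heart muscle structure and metabolism gave few unadjusted differences. Over all tested genes 2.82% were higher and 3.4% lower at an unadjusted p under 0.05, and 0.271% were called. At the share called, lists of these sizes would hold few calls or none. At an unadjusted p of 0.05, 0 of 22 natriuretic peptide and fetal program genes, 0 of 30 sarcomere genes, 0 of 51 nuclear-encoded and 0 of 13 mitochondrially encoded respiratory chain genes, 0 of 36 genes of glycolysis and the citric acid cycle and 1 of 40 fatty acid genes passed, and none was called. The same held for calls in 29 collagens, laminins and matrix enzymes, 20 antigen presentation genes, 29 antioxidant and metallothionein genes, 32 genes of autophagy and the proteasome and 25 chamber transcription factors. In that order, 2, 4, 5, 2 and 1 genes of these lists lay below without overlap, against 5.79% of all tested genes. Above without overlap lay 0, 0, 1, 0 and 2, against 5.19%. In the last list Irx4, a ventricular factor, was at 7.06, 5.35 and 7.67 TPM and 9.62, 11.4 and 9.65 TPM (log2 fold change 0.55, limma adjusted p = 0.26). In all, 17 of 30 lists held no called gene, and 16 of the 34 called genes were in no list.

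**Figure D5:**
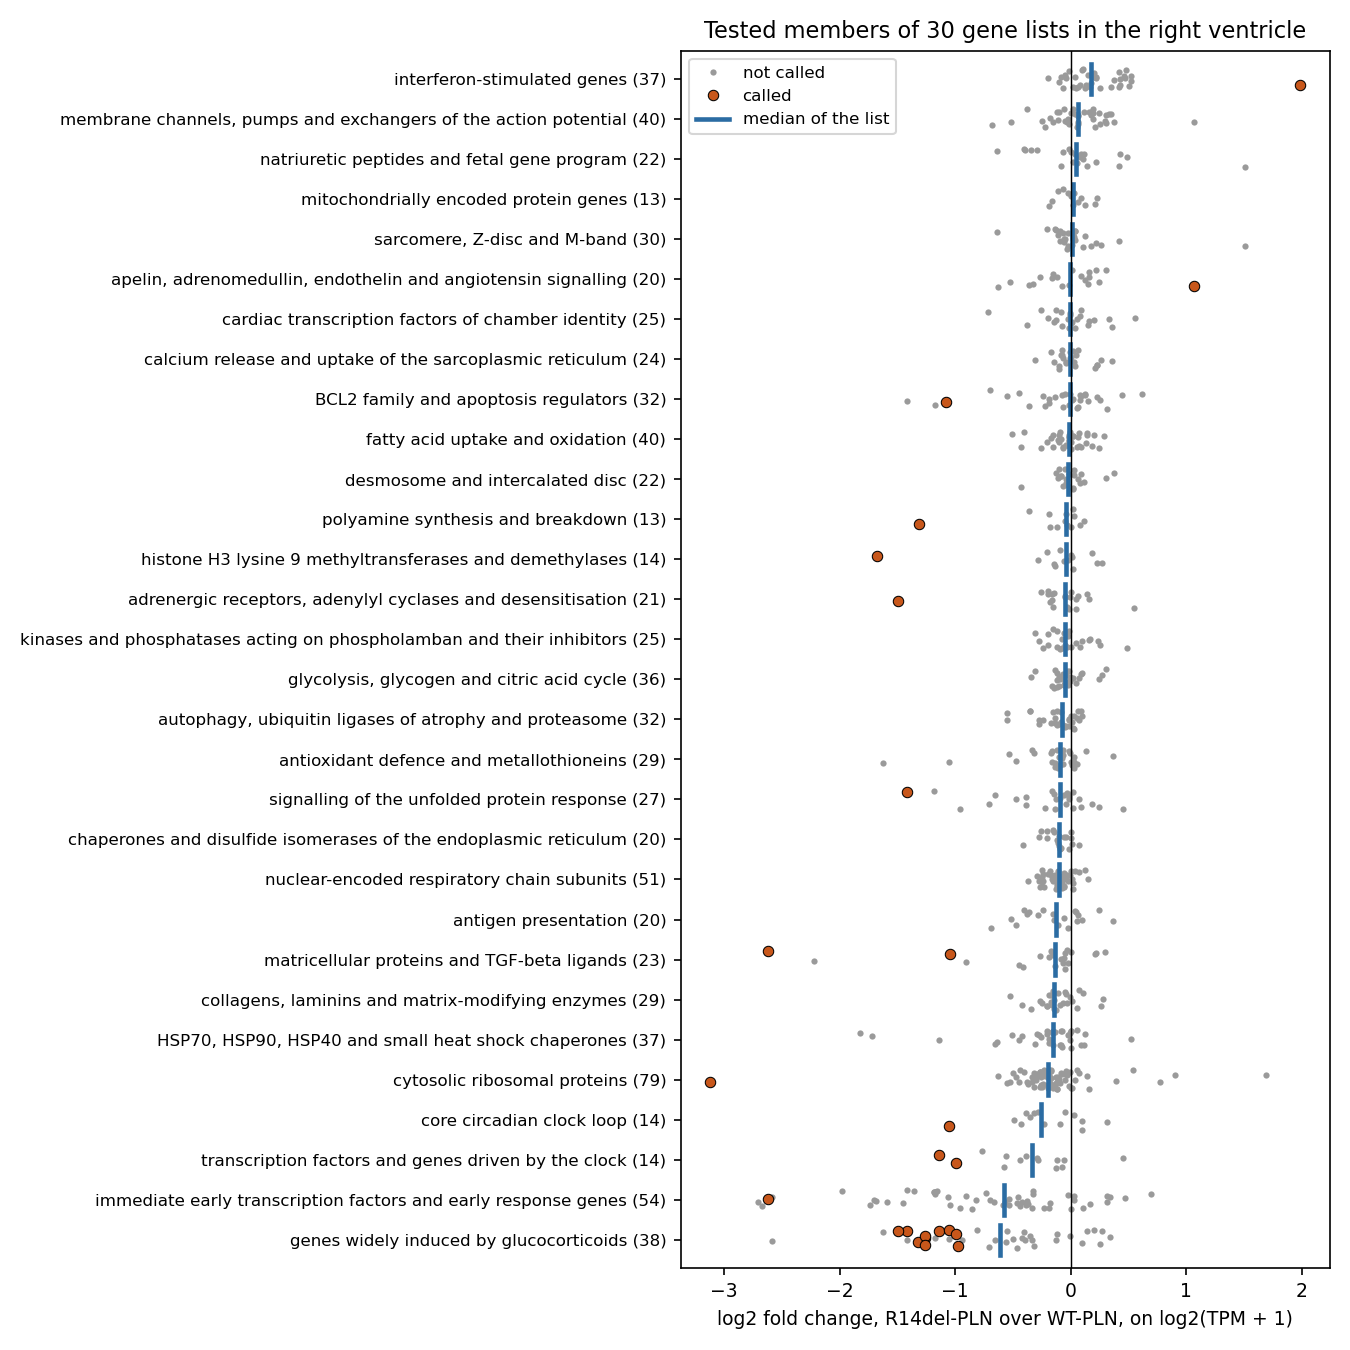
Log2 fold change of each tested gene in 30 lists in the RV (points, number tested in brackets), with called genes in orange and the median of each list as a blue bar. The 2 lowest medians are those of the glucocorticoid list at -0.61 and the early response list at -0.58. The highest median is that of the interferon list at 0.18, and most other medians lie near 0.

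Chromosome 10, which carries the Pln knock-in, held 7 of the 34 (20.6%) and 598 of the tested genes (4.81%). These were Ddit4, Gm9855, Sesn1, Amd2, Ctgf, 1190007I07Rik and Rassf9, at 6.61 to 49.2 Mb from Pln. Of the 20 tested genes within 5 Mb of Pln, 0 were called and 0 passed an unadjusted p of 0.05. The smallest limma adjusted p there was 0.93, for the connexin gene Gja1. Chromosome 3 held 5 called genes (14.7%, against 4.83% of tested genes), namely Rpl34, Gm10288, Gbp2b, Gm42807 and Alpk1. Strain origin at these places cannot be told apart from genotype in this design.

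Most called genes (29) were also called in the left ventricle (LV) of the same lines, where 65 of 12526 genes were called in all. Whether LV and RV samples came from the same hearts is not stated, and the main model treated all 12 samples as independent. The 4 Y-linked genes had a median log2 fold change of 1.13 in the RV and 0.98 in the LV. In the RV this rested on WT-PLN replicate 1, where they summed to 0.250 TPM. WT-PLN replicates 2 and 3 were at 51.2 and 56.0 TPM, and R14del-PLN samples at 50.3 to 63.7 TPM. As the LV and RV samples may share hearts, the LV calls cannot be taken as independent of those in the RV. The 5 genes called in the RV alone were Rgs2, Rassf9, Gm42807, Zcchc5 and Alpk1. Rgs2 was at 11.8, 21.97 and 17.8 TPM in WT-PLN and 8.85, 8.63 and 10.1 TPM in R14del-PLN LV samples, a log2 fold change of -0.80 (limma adjusted p = 0.25). Its interaction of genotype and ventricle was -0.70 (standard error 0.35, limma adjusted p = 0.9999). For Zcchc5 the LV value was -0.31 (limma adjusted p = 0.58) and the interaction -0.58. Rassf9, Gm42807 and Alpk1 had LV log2 fold changes of 0.61, 0.92 and 0.65, in the same direction as in the RV. Setdb2, called in both, had the larger difference in the RV (-1.67 against -0.94 in the LV, interaction -0.73, standard error 0.24, limma adjusted p = 0.9999). The interaction passed the adjusted threshold for 0 of 12526 genes in limma and an unadjusted p of 0.05 for 127, so a call in the RV alone was not shown to differ from the LV.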

How the data were processed

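The authors deposited 1 TPM value per gene and sample, made from stranded polyA RNA libraries sequenced on the Illumina platform. The study mapped reads to the mouse genome GRCm38 in CLC Genomics Workbench. How the deposited TPM were counted, and whether by strand, is not given in the sources used here. Values sum to 1000000 in each sample and keep no depth, so no counting error can be given. Between 17924 and 18357 genes were above 0 in the RV samples.

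Groups and replicate numbers came from the labels. All 12 samples entered a limma 3.58.1 model of 4 group means (R 4.3.3, empirical Bayes with intensity trend; degrees of freedom 8 residual, 5.15 prior) after adding 1 TPM and taking log2, a scale on which weakly expressed genes show compressed changes. Benjamini-Hochberg adjustment was over 12526 genes. A fold change of a gene listed at or near 0 in a group depends on the pseudocount of 1 and is no bound. Lists were described by counts and medians. Sums were compared by two-sided exact permutation. The model was tested on simulated data. Copies were searched with BLAST 2.17.0 and motifs with Python 3.11.15. Of the tested genes, 12436 (99.3%) matched the GENCODE annotation of GRCm38, from which coordinates were taken.

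One called gene is not reported here. The text names each other called gene, called list members with up to 4 further members of smallest p, Pln, Atp2a2, genes near Pln and parents of copies. Nr3c1, Hsd11b1, Sgk1, Fkbp5, Cebpd, Gadd45g, Per2, Dbp, Gbp2, Gbp3, Cyr61, Egr1, Fos, Nr4a1, Klf4 and Zfp36 lie outside this rule, picked once their values had been looked at. The members, the lists and the tests were chosen with earlier results of these data known. The alternatives tried were a pseudocount of 0.5 or 0.1, a minimum mean of 1 TPM, of 5 TPM or none, the RV samples alone, no trend, 3 scalings (median ratio, upper quartile, quantile), no mitochondrially encoded genes, fold thresholds, replicate blocks and each sample left out. The RV samples alone with a replicate block was added after seeing the data. Protein data and Gene Ontology enrichment were not analysed here.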

Additional observations from a re-analysis of the deposited data

Results flagged for a closer look

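Fam60a, a subunit of the Sin3 histone deacetylase complex, moved in opposite directions in the ventricles, with ranges that did not overlap in either. In the RV it was at 0.990, 0.975 and 1.26 TPM in WT-PLN and 1.42, 1.49 and 1.78 TPM in R14del-PLN samples (log2 fold change 0.30, limma adjusted p = 0.86), and in the LV the log2 fold change was -0.52. The difference between the ventricles' log2 fold changes was 0.826, with an unadjusted p of 0.0022 and an adjusted p of 0.9999 in limma, so it did not pass the correction over 12526 genes.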

How the results depend on the processing

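All 34 called genes kept their direction in each of the 21 other fits that tested them, and 13 were called in every fit in which they were tested. With each sample left out in turn, the number of genes called ranged from 14 to 39, those higher from 4 to 7 and those lower from 10 to 33, and the log2 fold change of Pln ranged from -0.0853 to 0.0356. Without both WT-PLN replicate 1 samples of the series, 88 genes were called (76 lower). Scaling raised the count, to 87 by median ratio (29 higher, 58 lower), 87 by upper quartile (32 and 55) and 85 by quantile normalization (29 and 56), as did removal of mitochondrially encoded genes, to 72 (30 and 42), where Pln was 0.00535. All 34 were among the calls under each of these 4. With no filter 17 were called (4 and 13), and with a filter at 5 TPM 2 were higher. The interaction passed for 2 genes with no filter, Gm14119 and Igkv6-13, and for 0 to 1 genes with a sample left out. With a sample left out, log2 fold changes changed sign for further genes, none of them called: Atp2a2 (-0.167 to 0.0189), Hsf2 (-0.239 to 0.0178), Acta1 (-1.08 to 0.0882), Xirp2 (-0.0315 to 0.577), mt-Nd4l (-0.0270 to 0.359), Prr3 (-0.0354 to 0.126), Gm17374 (-1.03 to 0.0780), Gbp2 (-0.0208 to 0.197), Pcna (-0.132 to 0.1003) and Hsd11b1 (-0.202 to 0.565). Hsd11b1 was also -0.202 without both WT-PLN replicate 1 samples, and Pcna 0.00878 without mitochondrially encoded genes. Genes outside the naming rule and the text are not listed. Same-numbered RV samples of the genotypes deviated together by 0.0610, 0.219 and 0.133, and differently numbered ones by -0.162 to 0.0788. Each sample correlated best with its own number except R14del-PLN replicate 1 (0.0610 with its own number, 0.0788 with WT-PLN replicate 3). The main model did not take the numbers as pairs, and whether they mark a batch or a pair was not tested. With a fixed replicate block 62 genes were called (15 and 47), 85 (21 and 64) with the block in the RV samples alone, and 35 with a random block. The cause of these shifts was not tested. Depth is unknown, so what low TPM values can show is not known either.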
